A study of Mus musculus with 9 samples.

Results

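Among the 1881 mouse miRNAs of the array are 10 mostly late and poorly characterised entries of miRBase, the public registry of miRNAs, whose probes gave signal in liver. They are mmu-miR-6366, mmu-miR-3963, mmu-miR-5100, mmu-miR-8110, mmu-miR-6538, mmu-miR-5126, mmu-miR-7042-5p, mmu-miR-8101, mmu-miR-7050-5p and mmu-miR-7082-5p. They were chosen by name, for being measured in liver and for including the array's brightest entry, so their signal is given as a description and without a test. The arrays measured 9 liver samples from males of the inbred mouse strain C57BL/6J, collected at 20 weeks of age, and each sample pooled the livers of 4 mice. In the metformin group (3 pools), mice were fed chow of which fat supplied 45% of the energy, for 17 weeks from 3 weeks of age. After the first 12 weeks, from 15 weeks of age, they received metformin by stomach tube at 3 mg per kg per day for 5 weeks, a dose given here as labelled. Metformin is a glucose-lowering drug used in diabetes. In the high fat diet group (3 pools), mice were fed the same high fat chow for the same time and received saline over the same 5 weeks. In the control group (3 pools), mice were fed normal chow for 17 weeks, and the sources used here do not state a vehicle for them. The spread between arrays is therefore one between pools, and p-values apply to pools and not to single mice.

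A miRNA is a short RNA cut from a hairpin precursor, and it lowers the output of messenger RNAs that pair with its seed, the bases near its 5′ end. The liver's best known miRNA is miR-122, which hepatocytes make in large amounts. Entries registered late were mostly found by deep sequencing of small RNA, and for many of them it is debated whether the sequence is a miRNA or a fragment of another RNA. The 10 entries have no liver function that is settled enough to be given as background. Names below leave out the species prefix mmu.

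RefSeq held a mature sequence for 9 of the 10 miRNAs, and they are printed because their composition is described here and set beside the differences below. Each is written 5′ to 3′ with its seed (bases 2 to 8) in capitals.
miR-6366: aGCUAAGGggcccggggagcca
miR-3963: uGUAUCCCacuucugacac
miR-5100: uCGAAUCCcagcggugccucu
miR-8110: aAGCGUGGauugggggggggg
miR-6538: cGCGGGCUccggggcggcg
miR-5126: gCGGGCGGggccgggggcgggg
miR-8101: gGCGAGCGgagccggaggagcc
miR-7050-5p: aCAGGAGAagggggugagaga
miR-7082-5p: uACGGGCAggaggaggggagg
The 9 seeds all differ. The RefSeq table holds 1738 mature entries, and a search that left out those of a single chromosome found no other entry with any of these seeds. The median GC content of the 9 was 71.4%, against 47.8% over the 116 other tested miRNAs with a sequence. Guanine alone made up a median of 54.5% of their bases, against 27.3% in the others. A run of at least 4 guanines stood in 6 of the 9 and in 14 of the 116 others (12.1%). The longest run, of 10, was in miR-8110. The GC-poorest of the 9 was miR-3963 at 47.4%, while miR-5126 had no base other than G and C.

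In RefSeq's annotation of GRCm38.p6 each of the 9 sequences had a single locus. Those of miR-6366 (chr16:18165093-18165114, minus strand), miR-3963 (chr3:151023839-151023857, minus strand) and miR-8110 (chr8:89024791-89024811, plus strand) lay within the span of no other gene of the table. Only gene spans were at hand, so exon, intron or UTR was not assigned. The strand of the genes was not matched, so a sequence may lie opposite to the gene named. The miR-5100 sequence (chr11:60728698-60728718, plus strand) lay within Mief2, a gene for a mitochondrial fission factor. The miR-6538 sequence (chr12:26414970-26414988, minus strand) lay within Rnf144a, a ubiquitin ligase gene. The miR-5126 sequence (chr1:84695890-84695911, plus strand) lay within Dner, a gene for a Notch-like receptor. The miR-8101 sequence (chr11:102230103-102230124, minus strand) lay within Hdac5, a histone deacetylase gene. The miR-7050-5p sequence (chr7:31040292-31040312, minus strand) lay within Fxyd5, a gene for a sodium pump modulator, and within the span of the long noncoding RNA Gm38984. The miR-7082-5p sequence (chr9:21075563-21075583, minus strand) lay within Raver1, an RNA-binding protein gene, and within the span of the long noncoding RNA Gm38431. Expression of these genes was not measured here.

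Some stretches that take in seed bases recurred in another entry. The letters CGAAUCCCA were shared by miR-5100 and miR-3968, another tested entry, and AUCCCACU by miR-3963 and miR-3968. Members shared stretches of this length with other tested entries too, whose values stand beside that of miR-3968 below.
miR-3968: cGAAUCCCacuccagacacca
Its locus is chr11:115447969-115447989 on the minus strand. The hairpin of miR-5100, at chr11:60728663-60728726 on the plus strand, is shown because it holds the letters GUUCGANNC, in capitals, which are those of the T loop common to tRNAs.
Mir5100 hairpin: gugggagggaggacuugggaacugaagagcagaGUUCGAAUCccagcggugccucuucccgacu
Only this motif was searched, on the strand of the hairpin alone, and the count over RefSeq hairpins again left out a chromosome. It stood at bases 34 to 42 of this hairpin, in 1 hairpin of the 10 miRNAs, and in 5 of 1005 RefSeq hairpins (0.498%). The match describes these letters and says nothing of where the measured RNA came from.

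The arrays are one-colour, with intensity read on 56430 miRNA spots each, and each level is the log2 of an intensity over the array's own 75th percentile, taken from the 187 probes that every array detected. Edge strips in which bright probes gave no signal were left out. They took 0 to 31.1% of the spots on the metformin arrays, 0 to 53.6% on arrays of the high fat diet and 41.1 to 43.8% on those of the controls, so the groups were not balanced in this respect. The scaling percentile lay between 231 and 252 on metformin arrays, 221 and 323 on high fat diet arrays, and 193 and 225 on control arrays, over a mean local background of 15.6 to 20.2. The scanner software detected 158 to 190, 136 to 181 and 136 to 156 miRNAs per array in the same order of groups. A first slide held 8 arrays and the third control array was on another. On the first slide, row 1 held all 3 high fat diet arrays and 1 metformin array, and row 2 held 2 metformin and 2 control arrays. Tests used limma over the 143 miRNAs that at least 1 group detected on each of its 3 arrays, with Benjamini-Hochberg adjustment and a threshold of 0.05. Of the liver label's markers, miR-122-5p was at 6.71, 6.57 and 6.74 on metformin arrays, 6.56, 6.60 and 6.43 on high fat diet arrays, and 6.56, 6.65 and 6.71 on control arrays. The 3 pancreas markers were detected on no array, and none of the 3 muscle markers was detected widely enough to be tested.

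All 10 miRNAs passed the detection filter. All but miR-7082-5p were detected on 9 arrays, and that entry was detected on 8, missing on the second high fat diet array, so that it entered through the other groups. By mean level the word bright fitted 5 of the 10. Among the 143 tested miRNAs miR-6366 ranked 1, ahead of miR-122-5p, miR-3963 ranked 3, miR-5126 ranked 11, miR-5100 ranked 12 and miR-8110 ranked 15. The other 5 ranked 60 (miR-6538), 72 (miR-7042-5p), 104 (miR-8101), 109 (miR-7050-5p) and 123 (miR-7082-5p), and miR-8117 and miR-7047-5p, late entries outside the 10, ranked above all of these at 49 and 51. The rank of miR-5100 rests on its dimmer probe, because its brighter probe had too few usable spots outside the strips. Brightness depends on each probe as well as on the RNA, so these ranks are no order of abundance. The intensity of miR-6366 lay between 81695 and 106856 over the 9 arrays, and no spot on any array was saturated. That of miR-3963 lay between 14789 and 23106, and those of miR-5126, miR-8110 and the dimmer probe of miR-5100 between 538 and 1154. The brighter probe of miR-5100, which represents it in the reading with all spots, gave 4542 to 10939 there. For miR-6538 the range was 54.9 to 81.4 and for miR-7042-5p 39.0 to 58.0. The dimmest entries, miR-8101 (16.1 to 27.0), miR-7050-5p (15.9 to 23.0) and miR-7082-5p (12.1 to 21.7), gave background-subtracted signals about as large as the local background itself.

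**Figure D1:**
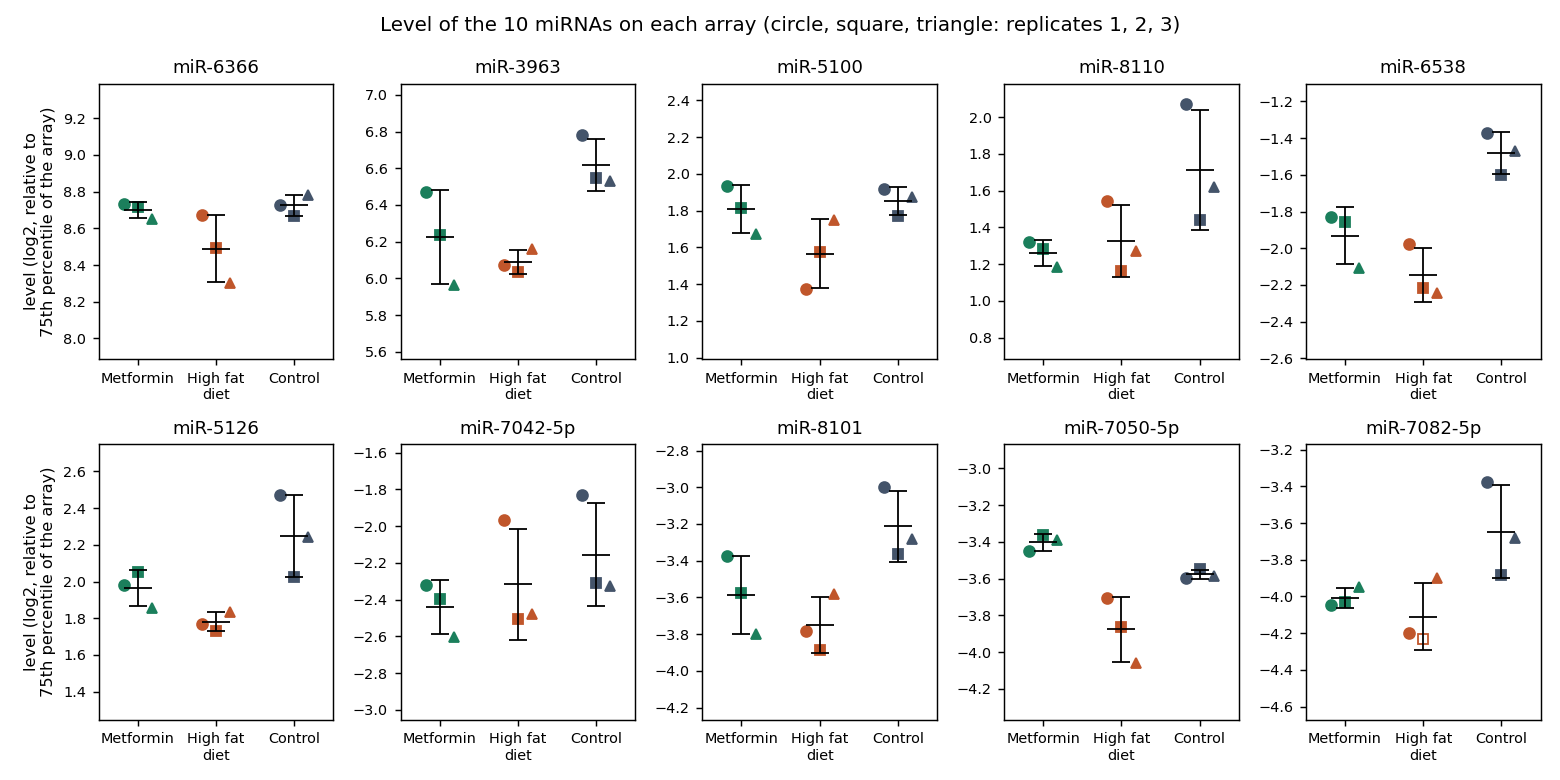
Level of each of the 10 miRNAs on each array (log2 relative to the array's 75th percentile), with metformin, high fat diet and control pools from left to right, the symbol giving the replicate number, and bars for the group mean and SD (n = 3). The vertical axes span the same number of log2 units but start at different values, and the open square is the array on which miR-7082-5p was not detected. Control pools have the highest mean for 9 of the 10.

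The high fat diet pools were set against the control pools to ask which entries differed with the diet. All 10 had lower mean levels in high fat diet liver, and 5 passed the test: miR-6538, miR-8101, miR-3963, miR-5126 and miR-7082-5p fell 1.38- to 1.59-fold. Over all tested miRNAs 9.79% passed as lower (14 of 143). Of the 5, miR-7082-5p entered the test only through the control and metformin groups, where its mean was higher. Its pass is therefore no support for a lower level. The median difference of the 10 was -0.42, against 0.03 over all 143, of which 65 (45.5%) were negative. The list was put together with earlier results of these data known, and some members were then already known to be lower with the diet, so this count is a description and no independent evidence. Arrays of the high fat diet group all lay below those of the control group for 7 of the 10, against 15.4% of all tested miRNAs. In whole liver, fewer cells of a type and less RNA per cell cannot be told apart.

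The largest difference was that of miR-6538, the GC-rich entry within Rnf144a. Its level was -1.98, -2.22 and -2.25 in high fat diet liver and -1.37, -1.60 and -1.47 in control liver. Every high fat diet pool lay below every control pool, and the level fell 1.59-fold (log2 difference -0.67, SE 0.11, adjusted p = 0.00665 by limma). With all spots kept, strips included, it also passed (-0.69, SE 0.16, adjusted p = 0.0464).

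For miR-3963, among the brightest on the array, the level was 6.07, 6.03 and 6.16 in high fat diet liver and 6.78, 6.55 and 6.53 in control liver. The groups did not overlap, and the level fell 1.44-fold (-0.53, SE 0.13, adjusted p = 0.0263 by limma). With all spots the difference was -0.83 (SE 0.18, adjusted p = 0.0464). Its sequence neighbour miR-3968 read -0.02 (SE 0.14, adjusted p = 0.961) in the same comparison. Other neighbours read lower. Stretches of 9 letters were shared by miR-5126 with miR-149-3p (-0.57), and by miR-7082-5p with miR-6965-5p (-0.45) and miR-7047-5p (-0.34). Of further entries sharing 8 letters with a member, miR-3077-5p read -0.58, miR-2861 -0.31, miR-8117 -0.21 and miR-30c-2-3p 0.07. These stretches are short, and their part in the differences was not tested. For miR-8101, within Hdac5, the level was -3.78, -3.89 and -3.58 in high fat diet liver and -3.00, -3.36 and -3.28 in control liver. The groups did not overlap, and it fell 1.45-fold (-0.54, SE 0.14, adjusted p = 0.0301). With all spots its difference was nearly the same but did not pass (-0.55, SE 0.21, adjusted p = 0.149).

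The level of miR-5126, the entry made of G and C alone, was 1.77, 1.73 and 1.84 in high fat diet liver and 2.47, 2.03 and 2.24 in control liver. The high fat diet pools were close to each other and all below the control pools, and the level fell 1.38-fold (-0.47, SE 0.12, adjusted p = 0.0269 by limma). With all spots it did not pass (-0.60, SE 0.19, adjusted p = 0.0960). The level of miR-7082-5p was -4.20, -4.23 and -3.90 in high fat diet liver, where 2 of 3 arrays detected it, and -3.38, -3.88 and -3.68 in control liver. The gap between the groups was narrow, between -3.90 and -3.88, and the adjusted p was just under the threshold at 0.0481 (-0.46, SE 0.14). With all spots the groups overlapped (-0.45, SE 0.26, adjusted p = 0.353).

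The other 5 did not pass. For miR-7050-5p the level was -3.71, -3.87 and -4.06 in high fat diet liver and -3.60, -3.55 and -3.58 in control liver, without overlap (-0.30, SE 0.10, adjusted p = 0.0624 by limma). For miR-5100 it was 1.37, 1.58 and 1.75 in high fat diet liver and 1.92, 1.77 and 1.87 in control liver, also without overlap (-0.29, SE 0.11, adjusted p = 0.104). Both thus stood apart in every pool without passing. The level of miR-8110 was 1.54, 1.16 and 1.27 in high fat diet liver and 2.07, 1.44 and 1.62 in control liver, and the groups overlapped (-0.39, SE 0.16, adjusted p = 0.108). That of miR-6366 was 8.67, 8.49 and 8.30 in high fat diet liver and 8.73, 8.67 and 8.78 in control liver, with the first high fat diet pool just above the second control pool (-0.24, SE 0.10, adjusted p = 0.136). For this brightest entry the 95% interval of the difference ran from -0.46 to -0.01. The level of miR-7042-5p was -1.97, -2.51 and -2.48 in high fat diet liver and -1.83, -2.31 and -2.32 in control liver, where the first pool of each group stood above the rest (-0.16, SE 0.17, adjusted p = 0.526).

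With all spots kept, 4 of the 10 passed, against 5.76% of the 139 miRNAs tested as lower. These were miR-6538, miR-3963, miR-8110 (-0.79, adjusted p = 0.0464) and miR-7042-5p (-0.70, adjusted p = 0.0464). For these last 2 the difference was smaller without the strips, and neither passed there. All 10 were again negative, with a median of -0.57 against -0.22 over all 139. The 2 readings share the same arrays.

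**Figure D2:**
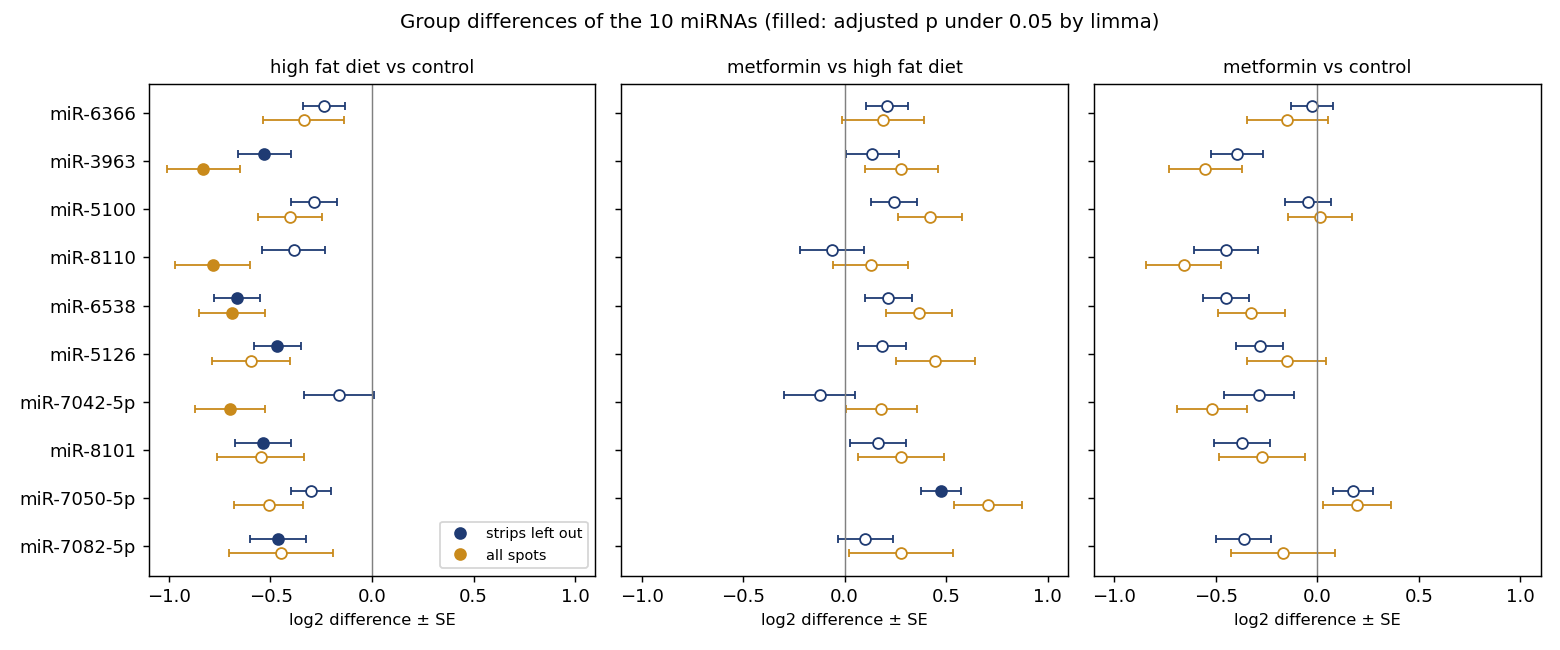
Log2 difference with its SE for each of the 10 miRNAs in the 3 comparisons, with edge strips left out (blue) and with all spots (orange, for miR-5100 another probe), filled where the adjusted p by limma was under 0.05. All diet differences lie left of 0 in both readings, while the metformin against high fat diet differences lie mostly right of it.

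The sign of these differences depended on the scaling, and their place among the other miRNAs did not. The scaling percentile was 0.35 higher on the log2 scale on high fat diet than on control arrays. Without scaling, the median difference of the 10 was -0.07, with 6 of 10 negative and 0 passing by limma, while the median over all 143 tested was 0.37. Relative to the median of all tested miRNAs, the 10 lay at -0.45 both with and without scaling. With scaling to the 75th percentile over all probes, the median over all tested miRNAs moved to 0.56 and that of the 10 to 0.11, again -0.44 below it. Each of the 10 lay below the median of all tested miRNAs in every one of these settings. In the authors' deposited values, fitted with the same model, 9 of 10 did. The exception was miR-7082-5p. The differences given here are therefore relative to the other miRNAs on the array.

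Single arrays and the layout of the slides also bore on the count. Without the first control array, the highest of the 9 for 7 of the 10 miRNAs, miR-6538 alone passed, and the median of the 10 was -0.22 against 0.10 over all tested. Leaving out the first or the second high fat diet array also left miR-6538 alone, with medians of -0.41 and -0.34. Without the second metformin array, which enters only through the shared spread and the filter, 3 passed (miR-6538, miR-3963 and miR-5126). Without the first or the third 4 did, miR-7082-5p being lost. Over all tested miRNAs the count passing in either direction itself ran from 6 to 40 with single arrays left out. It is not given array by array, so these counts of the 10 have no share beside them and are descriptions. No row of the first slide held both groups, so that row and diet could be separated only through the metformin arrays. With the row as a block, over the 8 arrays of that slide, 0 of the 10 passed by limma (31 of 144 miRNAs had an unadjusted p under 0.05), and the median of the 10 was -0.48 with all 10 negative. The SE of miR-6538 was then 0.23 and its difference -0.81 (adjusted p = 0.0834). Within the first slide the 10 differences ran from -0.66 to -0.21. The part of the row in the result was not tested beyond this.

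The metformin pools were set against the high fat diet pools to ask which of the diet's differences the drug moved. Of the 10 miRNAs, miR-7050-5p, the entry within Fxyd5, rose and the other 9 did not pass, against 1.40% (2 of 143) passing as higher. Its level was -3.45, -3.36 and -3.39 in metformin liver and -3.71, -3.87 and -4.06 in high fat diet liver. The metformin pools lay close together and all above the high fat diet pools, a rise of 1.39-fold (0.47, SE 0.10, adjusted p = 0.0465 by limma). The unscaled intensity was 22.5 to 23.0 on metformin arrays and 16.9 to 19.4 on high fat diet arrays, so the groups stood apart before scaling too, at a signal near that of the local background. The adjusted p lay at the threshold. Over 22 other settings the difference stayed positive, the adjusted p ran from 0.0230 to 1, and 5 passed. It did not pass without the third control array, without the second or the third high fat diet array, or without any of the 3 metformin arrays. With all spots it was 0.71 (SE 0.17, adjusted p = 0.110), 0.42 in the fit blocked on slide row (adjusted p = 0.420), and without the second metformin array 0.45 (adjusted p = 0.251).

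Across the 10, 8 differences between metformin and high fat diet were positive, with a median of 0.17 against -0.06 over all tested miRNAs. These differences use the same high fat diet arrays as the diet comparison, in which some members were already known to be low. The signs are therefore a description. Besides miR-7050-5p, only miR-5126 had all its metformin pools (1.98, 2.05 and 1.86) above its high fat diet pools (1.77, 1.73 and 1.84), at 0.18 (SE 0.12, adjusted p = 0.584). Non-overlap upward was seen in 8.39% of all tested miRNAs. The brightest entry miR-6366 was at 8.73, 8.71 and 8.65 in metformin liver and 8.67, 8.49 and 8.30 in high fat diet liver, where the groups overlapped (0.21, SE 0.10, adjusted p = 0.435). The remaining differences were 0.24 for miR-5100, 0.22 for miR-6538, 0.17 for miR-8101, 0.14 for miR-3963, 0.10 for miR-7082-5p, -0.06 for miR-8110 and -0.12 for miR-7042-5p. A median SE of 0.12 over all tested miRNAs limits what could be seen at this size. With all spots 0 of the 10 passed by limma (0 of all 139, and 15 at an unadjusted p under 0.05), all 10 were positive, and their median was 0.28 against 0.16 over all tested. In row 1 of the first slide, where 1 metformin array stood beside the 3 high fat diet arrays, the median of the 10 was 0.28, with 2 negative. The first metformin array lay 0.12 above the mean of the other metformin arrays in the median of the 10.

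The metformin pools were also set against the control pools, a comparison that shares its arrays with the other comparisons. None of the 10 passed by limma, against 1.40% (2 of 143) of all tested miRNAs in either direction, while 30 of all tested had an unadjusted p under 0.05. The differences were negative for 9 of the 10, with a median of -0.32 against -0.00 over all tested. The level of miR-6538 was -1.83, -1.86 and -2.11 in metformin liver and -1.37, -1.60 and -1.47 in control liver, without overlap (-0.45, SE 0.11, adjusted p = 0.0933). That of miR-3963 was 6.47, 6.24 and 5.96 in metformin liver and 6.78, 6.55 and 6.53 in control liver, also apart (-0.39, SE 0.13, adjusted p = 0.154). For miR-8110 the values were 1.32, 1.28 and 1.18 in metformin liver and 2.07, 1.44 and 1.62 in control liver (-0.45, SE 0.16, adjusted p = 0.159). All metformin pools lay below all control pools for these 3 and for miR-8101 (-0.37) and miR-7082-5p (-0.36), and all lay above them for miR-7050-5p (0.18, SE 0.10, adjusted p = 0.303). Non-overlap was seen downward in 13.3% and upward in 12.6% of all tested miRNAs. The other values were -0.29 for miR-7042-5p, -0.28 for miR-5126, -0.05 for miR-5100 and -0.03 for miR-6366.

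Ordered by their group means, 7 of the 10 were lowest in high fat diet liver, between in metformin liver and highest in control liver. Some members were already known to be lower with the diet when the list was made. The share of this order over all tested miRNAs is not given, so it is a description. For miR-8110 and miR-7042-5p the metformin group was lowest and the control group highest. The order of miR-7050-5p differed, with the high fat diet group lowest and the metformin group highest. For miR-6366 the metformin mean of 8.70 ± 0.04 and the control mean of 8.73 ± 0.06 (SD, n = 3 each) lay within each other's spread, with the high fat diet mean at 8.49 ± 0.18. The same held for miR-5100, at 1.81 ± 0.13 in metformin, 1.57 ± 0.19 in high fat diet and 1.85 ± 0.07 in control liver. For miR-8110 the metformin mean of 1.26 ± 0.07 and the high fat diet mean of 1.33 ± 0.19 lay within each other's spread, below the control mean of 1.71 ± 0.33.

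Each miRNA is read by 2 probes, which allows a check on whether a difference belongs to a single probe. The brighter probe of miR-5100 had too few usable spots and was dropped, leaving 9 with a second probe and 6 for which both were detected on all 9 arrays. For high fat diet against control the probes had the same sign in 6 of those 6, with a median gap of 0.06. The largest gap was that of miR-3963, where the brighter probe read -0.53 and the second -0.74. The probes of miR-6538 read -0.67 and -0.64, and those of miR-5126 -0.47 and -0.44. When the second probe took the place of the first, 3 of these 6 passed: miR-6538 (adjusted p = 0.00140 by limma), miR-3963 (0.0250) and miR-5126 (0.0250). The share of all tested miRNAs passing with this probe is not given, so the count is a description. For metformin against high fat diet the signs were the same in 6 of 6, and miR-7050-5p read 0.47 and 0.45, the second with an adjusted p of 0.159. For metformin against control they were the same in 5 of 6, with miR-6366 at -0.03 and 0.10. Probes of 1 miRNA share its RNA, label and arrays, so they bear on the spots and not on the pools.

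**Figure D3:**
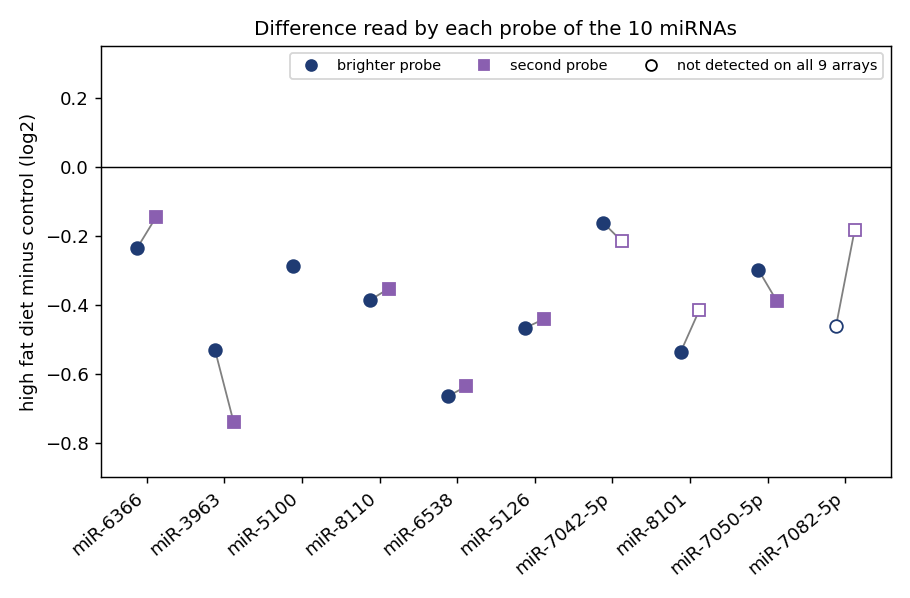
High fat diet minus control (log2) as read by the brighter and the second probe of each miRNA, joined by a line, with open symbols where a probe was not detected on all 9 arrays. All points lie below 0, and the widest gap among probes detected throughout is that of miR-3963. For miR-5100 only a single probe was left.

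Most of the 10 followed each other over the arrays, in part through the group differences. Pearson's r over the 9 arrays was positive in 44 of the 45 pairs of members, with a median of 0.61, against 0.05 over all 10153 pairs of tested miRNAs. These points share the arrays, their scaling and the group differences given above, and the values are descriptive. The closest pair was miR-3963 and miR-8101 (r = 0.98), and the only pair below 0 was miR-5100 and miR-7042-5p (r = -0.01). Against the mean of the other members, r was 0.96 for miR-5126, 0.95 for miR-6538, 0.93 for miR-8101 and 0.92 for miR-3963. It was 0.83 for miR-8110, 0.81 for miR-7082-5p, 0.62 for miR-6366 and for miR-5100, 0.58 for miR-7042-5p and 0.31 for miR-7050-5p. After group means were removed, it was 0.72 to 0.90 for miR-3963, miR-8101, miR-7042-5p, miR-6538, miR-5126 and miR-8110. It was 0.43 for miR-7082-5p, 0.26 for miR-6366, 0.21 for miR-5100 and -0.08 for miR-7050-5p. With each level centred on its own mean over the 9 arrays, the 10 averaged 0.05, -0.00 and -0.14 on the metformin arrays, -0.11, -0.26 and -0.19 on those of the high fat diet, and 0.39, 0.08 and 0.18 on those of the controls. The first control array thus stood well above the other control arrays, and it had the lowest scaling percentile of the 9 (193).

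The 3 other tested miRNAs most like the mean of the 10, by Pearson's r over the 9 arrays, were miR-211-3p (r = 0.93), miR-3960 (r = 0.93) and miR-3077-5p (r = 0.91). RefSeq gave sequences for miR-211-3p (chr7:64205868-64205888, plus strand) and miR-3077-5p (chr14:57798424-57798448, plus strand), shown with the seed in capitals to set their composition beside that of the 10.
miR-211-3p: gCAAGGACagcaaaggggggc
miR-3077-5p: cUGCGGACgggugggcgggcaggcc
Their GC content was 66.7% and 84.0%. The level of miR-3960 was 0.93, 0.79 and 0.94 in high fat diet liver and 1.69, 1.15 and 1.24 in control liver, where its first array was again the highest (-0.47, SE 0.13, adjusted p = 0.0392 by limma). The level of miR-211-3p was -2.77, -3.08 and -2.87 in high fat diet liver and -2.01, -2.55 and -2.39 in control liver (-0.59, SE 0.16, adjusted p = 0.0301). For miR-3077-5p, detected on 7 of the 9 arrays, the difference was -0.58 (SE 0.12, adjusted p = 0.0150). The group through which it entered the test is not given here. These 3 were picked for following the mean of the 10, which was lower with the diet. Their differences are therefore descriptions and no separate support.

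The high GC content of 7 of the 9 with a sequence was followed in the rest of the array, by a split at 60% made after the values had been seen. Among the 116 other tested miRNAs with a sequence, 23 had a GC content of 60% or more. Their high fat diet minus control difference was negative in 20 of 23, with a median of -0.24, and 5 of 23 passed as lower, where 9.79% of all tested miRNAs did. Among the 93 with less GC, 26 were negative and the median was 0.09. The gap between these medians was -0.33. It was -0.27 with all spots, -0.25 without the first control array (14 of 23 negative), and -0.66 with the row as a block. It was -0.38 without scaling, where the medians were 0.06 and 0.44. Pearson's r between GC content and the diet difference was -0.45 over these 116 miRNAs, and -0.19 with all spots (24 GC-rich miRNAs and 88 others), over points that share the same arrays and scaling. Guanine share gave r = -0.45 over the same 116 miRNAs and the longest guanine run -0.40, so GC content was not set apart from these traits. Of the 10 themselves, miR-3963 (47.4% GC, difference -0.53) and miR-7050-5p (57.1% GC, -0.30) were low although under 60% GC. Guanine made up 10.5% of miR-3963 and 52.4% of miR-7050-5p, which has a run of 5. For miR-7042-5p there is no GC value here.

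**Figure D4:**
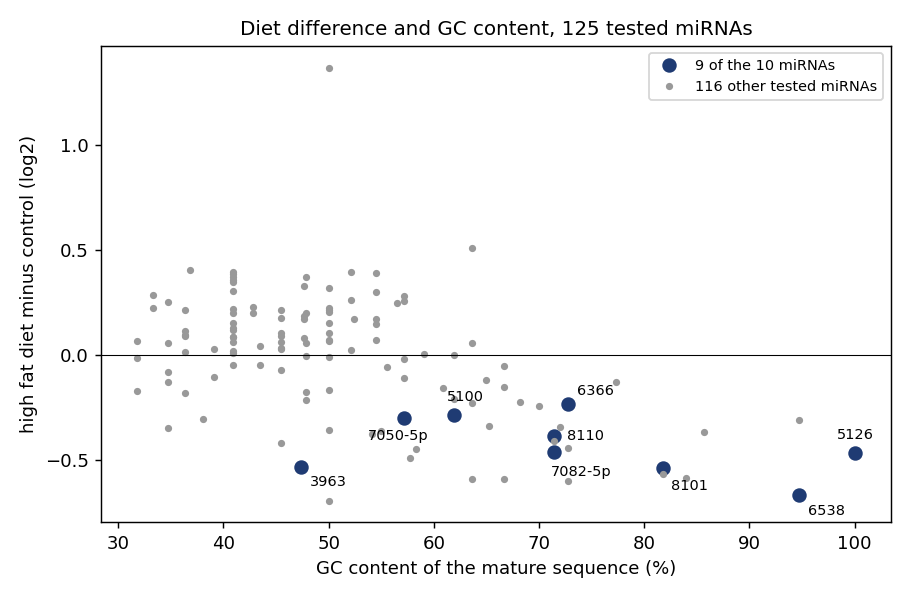
High fat diet minus control (log2) against the GC content of the mature sequence (%) for 125 tested miRNAs with a RefSeq sequence, with 9 of the 10 miRNAs as large labelled points (numbers only) and the 116 others as grey dots. Most miRNAs at 60% GC or more lie below 0, and miR-3963 is low at 47.4% GC.

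Array by array, the mean of the 10 and the mean of the 23 GC-rich others followed each other, with r = 0.95 over the 9 arrays and 0.97 after group means were removed. The 93 others gave r = -0.67. The GC-rich others averaged -0.02, -0.01 and -0.17 on metformin arrays, -0.06, -0.16 and -0.08 on high fat diet arrays, and 0.35, 0.03 and 0.11 on control arrays. The pools of a group therefore differed in this shared level as well as the groups. The part of base composition in the diet difference was not tested.

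**Figure D5:**
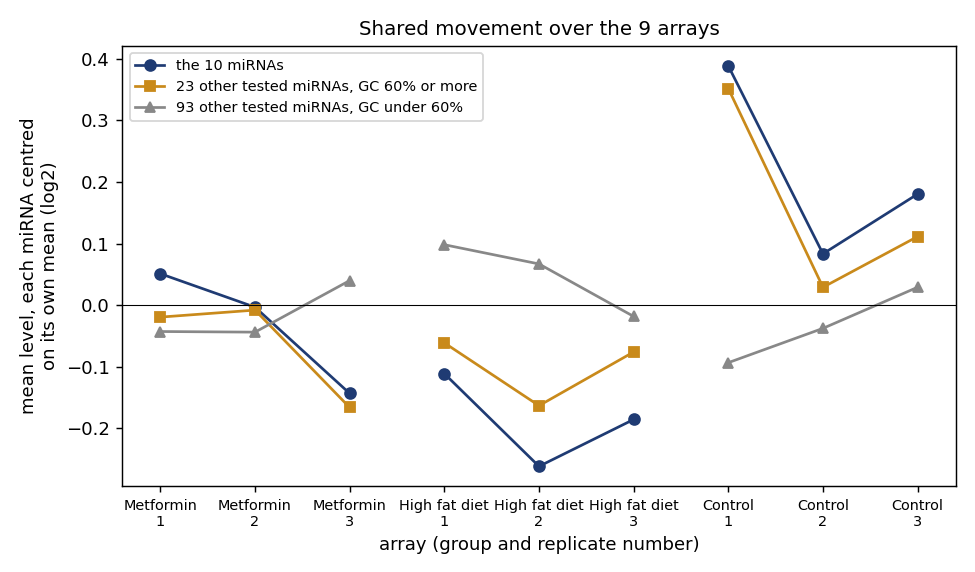
Mean level on each array, each miRNA centred on its own mean over the 9 arrays (log2), for the 10 miRNAs (circles), the 23 other tested miRNAs of 60% GC or more (squares) and the 93 of less GC (triangles). The circles and squares follow each other, both highest on the first control array at 0.39 and 0.35, while the triangles do not.

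Late numbering alone was looked at in the same way. Of 782 entries on the array with a number of 5000 or more, 758 were detected on no array and 19 were tested, 10 of them outside the list (miR-3963 has a lower number). Of those 10, 0 passed by limma for high fat diet against control, 9 were negative and the median was -0.29. None passed for metformin against high fat diet, where 3 were positive and the median was -0.07, or for metformin against control, where all 10 were negative and the median was -0.30. In these 10, arrays of the high fat diet group lay below those of the control group for 2, against 15.4% of all tested miRNAs. The 2 were miR-6965-5p and miR-6931-5p, which are named after their values were seen.

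Markers of other liver cell types were set beside these results. The summed level of the 4 hepatocyte markers was 6.74 to 6.91 on metformin arrays, 6.61 to 6.78 on high fat diet arrays and 6.70 to 6.87 on control arrays, and 0 of 4 passed by limma in the diet comparison. Stellate cell markers (2 of 5 tested, 3 detected on no array) summed to -1.87 to -1.80 on metformin arrays. Their sum was -1.74 to -1.65 on high fat diet arrays and -2.03 to -1.95 on control arrays. With the diet 1 of the 2 passed as higher by limma, where 6 of the 133 tested miRNAs outside the 10 did. The endothelial markers (1 of 2 tested) summed to 1.43 to 1.71, 1.65 to 1.67 and 1.39 to 1.55 in the same order of groups. Leukocyte markers (3 of 6 tested) summed to -1.72 to -1.59 on metformin arrays, -1.59 to -1.32 on high fat diet arrays and -1.70 to -1.35 on control arrays. The only tested erythroid marker of 3 gave sums of -1.94 to -1.72 on metformin arrays, -0.99 to -0.53 on high fat diet arrays and -1.57 to -0.13 on control arrays. The part of cell composition in the differences of the 10 was not tested.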

How the data were processed

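Spot intensity came from Agilent Feature Extraction 11.5.1.1 with background subtracted, per the file headers (the submitters' processing notes name version 10.7). The authors' deposited table gives log2 values and equals the software's total signal in log2 plus 1 constant per array (-2.35 to -0.71), with column medians from 1.59 to 2.19. The sources used here do not state how those constants were chosen, so centring and scale between arrays remain unknown.

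From the scanner files, edge columns where at least 10% of bright spots (intensity over 100) had under 50% of their probe's usual signal were left out, and a probe's value was the median over the spots that were left. A probe needed at least 3 of these on every array, which dropped 425. Each array was divided by its 75th percentile over the 187 probes that every array detected, floored at 0.0406 and put on the log2 scale. A probe was detected where over a share of 0.5 of its spots was well above background, and the brighter of the probes kept stood for a miRNA. A model of 3 group means was fitted with limma 3.58.1 in R 4.3.3 (with version 1.17.8 of data.table), two-sided, with Benjamini-Hochberg adjustment over all tested miRNAs; an exact permutation test of 3 against 3 pools cannot go below p = 0.1. The fit was tested on simulated data with known changes. The number of arrays limits the precision.

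Alternatives were all spots, strips at 5%, normexp (offset 50, on the median spot signal, as the files used here have no mean signal column), other scalings and filters, the second probe, slide, row or replicate number as a block, the deposited table and single arrays left out. The 10 miRNAs, the marker lists and the reading without strips were chosen with earlier results of these data known. Named besides the 10 were the 3 miRNAs most like their mean, late entries that pass a test (0) and miR-122-5p. After seeing values, miR-3968, the other entries sharing a stretch with a member, the entries used for ranks and 2 late entries were added. Sequences, loci and gene spans come from RefSeq tables of GRCm38.p6, matched by name (125 of 143 tested miRNAs), and not from the arrays' own annotation.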

Additional observations from a re-analysis of the deposited data

How the results depend on the processing

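The count of the 10 miRNAs passing for high fat diet against control (5) was 4 with all spots, 5 with strips at 5% or the slide as a block, 6 with normexp, 2 with quantile normalization, 8 with no filter, and 3 of 6 with the other probe. It was 0 with the row of the slide as a block, with the deposited table, with no scaling and with the 75th percentile over all probes, and 1 to 5 with single arrays left out. With no filter 1741 of 1879 miRNAs passed, most of them at the floor on every array, where there is no difference to test. The counts with no filter, here and below, are therefore no results about the 10. The row block had fewer arrays. Over all tested miRNAs the count of 20 was 9 with all spots, 0 with the row block, 0 with the deposited table, 1 with the 75th percentile over all probes, 53 with no scaling, and 6 to 40 with single arrays left out. Such counts are not given for strips at 5%, normexp, quantile normalization, the slide block or the other probe. The counts of the 10 in those settings thus have no share beside them. For metformin against high fat diet the 1 passing miRNA became 0 with all spots, normexp, the 75th percentile over all probes, quantile normalization, no filter, the other probe, the slide block, the row block, the deposited table and no scaling, and 0 to 1 with single arrays left out. For metformin against control the count of 0 became 3 with the 75th percentile over all probes (98 of 143 overall) and 2 with no filter (1721 of 1879), and stayed 0 with single arrays left out. Under the 75th percentile over all probes, 9 of the 10 turned positive in the diet comparison, all but miR-6538 (-0.13). Of those that had passed, miR-3963 stood at 0.00703, miR-7082-5p at 0.0755, miR-5126 at 0.0707 and miR-8101 at 0.00102. The 9 that were negative between metformin and control also turned positive, from 0.36 for miR-6538 to 0.76 for miR-5100 and 0.78 for miR-6366. The median of all tested miRNAs moved there by a similar amount, to 0.56 and 0.80. In the deposited table miR-7082-5p turned to 1.20 (SE 1.21), with -0.06, 0.33 and 0.28 on the high fat diet arrays against 0.81, -4.38 and 0.52 on the control arrays, so the second control array alone turned it. Replicate numbers did not pair the pools: correlations of same-numbered deviations ran from -0.24 to 0.43. With the replicate block the counts were 5, 0 and 0 in the same order of comparisons. No scaling and the split by GC content were added after seeing the data. Signal near the local background limits the 3 dimmest entries.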
